A study of Mus musculus with 6 samples.

Results

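Transcripts of 10 genes of the Hippo pathway and its YAP-driven output were measured in RNA-seq of 6 cell lines grown out of mouse liver tumors. They were chosen by name as the rows listed as *Yap1*, *Wwtr1*, *Tead1*, *Tead2*, *Lats1*, *Lats2*, *Ctgf*, *Cyr61*, *Ankrd1* and *Amotl2*, which are 10 of the 20856 genes with values. Tumors had been started in adult wild-type C57BL/6 females by hydrodynamic tail vein injection, which carried a *Myc* transposon and a transiently expressed Cas9 with its guide RNA into hepatocytes. In 3 lines the guide was directed at *Trp53* (*Myc*; sg*Trp53*), and in the other 3 at *Kmt2c*, the gene of the histone methyltransferase MLL3 (*Myc*; sg*Kmt2c*). All 6 lines therefore carried the *Myc* transposon, none was untargeted, and each came from a different mouse per the study's methods, with passaging until no fibroblasts were seen. Whether the lines differ in other alleles was not measured here. The question was how the transcripts of these genes differ when one tumor suppressor or the other has been disrupted.

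The Hippo pathway is a kinase cascade that restrains organ size, and the liver is a classic tissue in which it was studied. MST kinases activate LATS1 and LATS2, which phosphorylate the coactivators YAP (*Yap1*) and TAZ (*Wwtr1*) and keep them out of the nucleus. When the cascade is quiet, YAP and TAZ bind TEAD transcription factors and switch on genes such as *Ctgf*, *Cyr61* and *Ankrd1*, and they also switch on *Lats2* and *Amotl2*, which feed back on them. Much of this control acts on the proteins, so transcript levels of the pathway's parts are not a readout of its activity.

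Values are RPKM (reads per kilobase of listed transcript length, scaled to the reads counted on genes in each library). Between 5312182 and 6878625 reads fell on genes in the sg*Trp53* libraries and between 3680068 and 4704539 in the sg*Kmt2c* libraries, and all libraries shared the same lanes of a flow cell. *Trp53* ranged from 17.2 to 19.4 RPKM across sg*Trp53* lines, against 92.2 to 124 RPKM across sg*Kmt2c* lines, which put all 6 lines where their labels place them, while *Kmt2c* overlapped (18.4 to 24.2 against 9.51 to 25.0 RPKM). The lines are labelled as liver tumor lines, and *Alb*, the hepatocyte albumin gene, was near the floor in them (0.644 to 4.36 RPKM). Other hepatocyte markers were not low in every line: *Hnf4a* ran from 0.629 to 1186 RPKM and *Trf* from 0.464 to 72.5 RPKM. The endothelial list of 6 markers summed to at most 0.292 RPKM in any line. Of the immune markers, the T cell gene *Cd3e* was listed at 0 in all lines, while *Cd14* and *Lyz2* reached 70.3 and 45.3 RPKM.

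Of the 10 genes, 0 reached an adjusted p-value under 0.05 (limma on log2(RPKM + 1), Benjamini-Hochberg adjustment over 11617 genes), which 0.129% of all genes tested did, 0.0516% on the higher and 0.0775% on the lower side in sg*Kmt2c*. The adjusted p-values ran from 0.322 to 0.743 (limma). By direction, 9 had a lower mean on the log2 scale in the sg*Kmt2c* lines and *Lats1* a higher one. Of all 11617 genes tested, 6739 were lower in the sg*Kmt2c* lines. The median log2 fold change was -0.62 for the 10 genes, beside -0.09 over all genes tested. At an unadjusted p-value under 0.05 there were 3 genes, *Cyr61* and *Wwtr1* on the lower side and *Lats1* on the higher, where 8.58% of all genes tested were past the same limit (3.25% higher, 5.34% lower). These 3 were also the genes whose lines did not overlap between the genotypes, and 16.2% of all genes tested did not overlap (5.72% higher, 10.4% lower). *Cyr61* and *Wwtr1* kept an unadjusted p-value under 0.05 in all 14 alternatives (limma). *Lats1* lost it in 7 of the 14, among them 5 of the 6 that left out a line, with only the one without sg*Kmt2c* replicate 1 keeping it. *Ankrd1*, *Lats2*, *Tead1* and *Tead2* were each under that limit in 1 of the 14. Testing the recovered reads with limma voom also gave 0 genes past the adjusted threshold and 3 at an unadjusted p-value under 0.05. In bulk RNA, fewer cells of a type and less RNA per cell cannot be told apart.

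**Figure D1:**
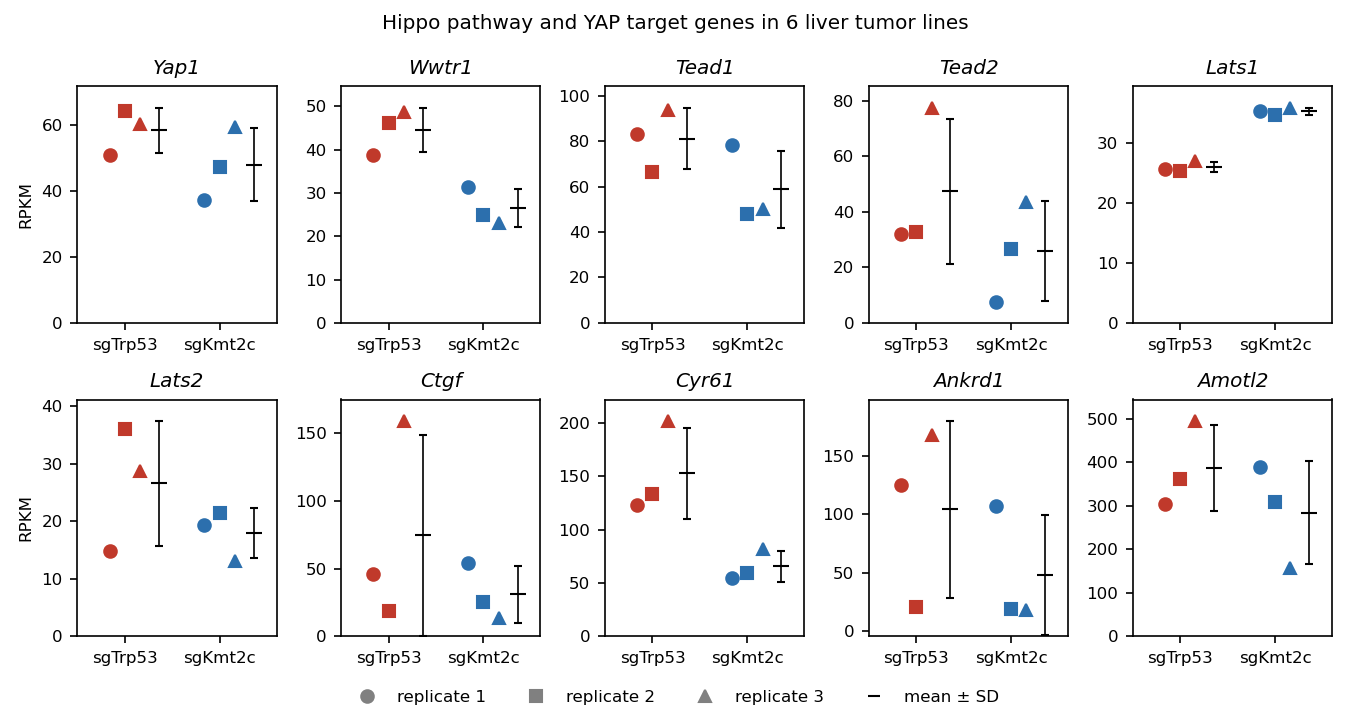
RPKM (linear axis) of each gene in the 3 sgTrp53 lines (red) and the 3 sgKmt2c lines (blue), with symbols for the replicate number and black bars for the mean ± SD of each genotype. Only *Wwtr1*, *Lats1* and *Cyr61* have no overlap between the genotypes, and *Ctgf* and *Ankrd1* spread widely within each.

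The promoters show what several of these genes share in sequence. RefSeq promoter windows of 300 bases (250 before the annotated transcription start and 50 after it, GRCm38.p6) were matched for 8 of the 10 genes, and no window was matched for *Ctgf* and *Tead1*. They were searched for the TEAD core motif GGAATG and its reverse complement CATTCC. These 8 genes had 10 windows, of which 7 held at least one copy (in *Yap1*, both of *Wwtr1*, the first of the 2 of *Lats2*, *Cyr61*, *Ankrd1* and *Amotl2*), while 14.7% of all 32851 windows of that length held one on either strand. Both *Wwtr1* windows overlap and hold the same copy, so by gene 6 of the 8 held one. The 14.7% is a share of windows, and no share by gene was computed. *Cyr61*, *Ankrd1* and *Amotl2* are on the list as known YAP targets, so these genes are no random draw of promoters. *Ankrd1* held 2 copies, starting 210 and 123 bases before its start, *Cyr61* 1 copy at 103 bases before, and *Wwtr1* 1 copy at 136 bases before. *Lats1*, *Tead2* and the other *Lats2* window held none. A match of letters is a description of the sequence and does not show that TEAD binds there. The windows of the 3 genes whose lines did not overlap are printed with that of *Ankrd1*, the gene with most copies, from chr3:145649936-145650235 (minus strand), chr19:36119795-36120094 (minus strand), chr3:57575861-57576160 (minus strand, the first of 2 windows) and chr10:7680959-7681258 (plus strand). Capitals mark the motif.
Cyr61: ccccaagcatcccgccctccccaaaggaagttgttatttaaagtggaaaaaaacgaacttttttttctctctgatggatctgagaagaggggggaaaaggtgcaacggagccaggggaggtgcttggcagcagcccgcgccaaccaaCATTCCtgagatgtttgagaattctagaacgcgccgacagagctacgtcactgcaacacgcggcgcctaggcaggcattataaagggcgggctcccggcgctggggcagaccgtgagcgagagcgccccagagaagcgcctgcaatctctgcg
Ankrd1: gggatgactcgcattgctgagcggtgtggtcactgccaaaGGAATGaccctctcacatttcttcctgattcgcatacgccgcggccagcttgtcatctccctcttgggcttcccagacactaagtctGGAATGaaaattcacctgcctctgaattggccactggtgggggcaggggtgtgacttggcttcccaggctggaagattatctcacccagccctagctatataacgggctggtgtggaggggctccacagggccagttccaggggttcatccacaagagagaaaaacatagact
Wwtr1: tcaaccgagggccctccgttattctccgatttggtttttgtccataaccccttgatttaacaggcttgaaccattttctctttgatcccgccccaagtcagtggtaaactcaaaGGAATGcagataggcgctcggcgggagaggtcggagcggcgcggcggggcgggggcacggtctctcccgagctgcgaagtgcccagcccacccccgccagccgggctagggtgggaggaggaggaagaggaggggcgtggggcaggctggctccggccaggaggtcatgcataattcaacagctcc
Lats1: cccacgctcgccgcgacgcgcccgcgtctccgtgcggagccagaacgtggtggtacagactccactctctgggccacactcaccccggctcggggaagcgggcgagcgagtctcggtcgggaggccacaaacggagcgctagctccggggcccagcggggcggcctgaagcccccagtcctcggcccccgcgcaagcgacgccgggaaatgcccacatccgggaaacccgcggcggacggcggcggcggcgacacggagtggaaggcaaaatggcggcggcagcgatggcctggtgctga

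Of the kinases, *Lats1* was the gene with the tightest values. *Lats1* (ENSMUSG00000040021, chromosome 10, from 7681209 to 7716458 on GRCm38) lay at 25.7, 25.3 and 26.9 RPKM in sg*Trp53* replicates 1, 2 and 3, against 35.2, 34.6 and 35.8 RPKM across sg*Kmt2c* lines. All sg*Kmt2c* lines were above all sg*Trp53* lines, and within a genotype the lines stayed within 1.06-fold of each other (sg*Trp53*) and 1.03-fold (sg*Kmt2c*). These values rest on 530 to 771 reads per library, and whether so small a spread lies within counting noise was not tested. The means were 26.0 ± 0.847 and 35.2 ± 0.604 RPKM (SD, n = 3 lines each). On the log2(RPKM + 1) scale the difference was 0.43 (SE 0.164, 95% confidence interval 0.03 to 0.82, adjusted p = 0.564 from limma). limma moderates the spread of a gene towards that of other genes of similar level, and the standard error (SE) is therefore not the spread of these lines alone. An exact two-sided permutation test gave p = 0.1, the smallest that 3 lines against 3 allow.

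*Lats2*, the paralog that YAP itself induces, overlapped between the genotypes. *Lats2* (ENSMUSG00000021959, chromosome 14, from 57642077 to 57758388) lay at 14.8, 36.1 and 28.8 RPKM across sg*Trp53* lines, against 19.3, 21.4 and 13.0 RPKM across sg*Kmt2c* lines. Among its values sg*Trp53* replicate 1 sat within the sg*Kmt2c* range. The log2 fold change was -0.48 (95% confidence interval -1.37 to 0.40, adjusted p = 0.720 from limma). Without sg*Trp53* replicate 1 it was -0.84, and leaving out sg*Trp53* replicate 2 gave -0.23, leaving out sg*Kmt2c* replicate 3 gave -0.28. *Lats1* exceeded *Lats2* per listed length in sg*Trp53* replicate 1 (a ratio of 1.74) and in all sg*Kmt2c* lines (1.83, 1.62 and 2.75), and not in sg*Trp53* replicates 2 and 3 (0.702 and 0.935). The *Lats2* gene body overlaps *Xpo4* and *Gm20430* in the table, and since the use of strand in counting is not stated, its value may hold reads of those genes.

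Of the coactivator genes, *Wwtr1* was apart between the genotypes and *Yap1* was not. *Wwtr1*, which encodes TAZ (ENSMUSG00000027803, chromosome 3, from 57455649 to 57575910), lay at 38.7, 46.1 and 48.7 RPKM across sg*Trp53* lines, against 31.4, 24.9 and 23.1 RPKM across sg*Kmt2c* lines. Every sg*Kmt2c* line was below every sg*Trp53* line. The means were 44.5 ± 5.18 and 26.5 ± 4.35 RPKM (SD, n = 3 each), with a log2 fold change of -0.73 (SE 0.203, 95% confidence interval -1.22 to -0.25, adjusted p = 0.422 from limma). Dropping any one line kept this value between -0.86 and -0.64, and its unadjusted p-value ranked *Wwtr1* at place 254 of the 11617 genes. *Gm16016* overlaps *Wwtr1* in the table.

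*Yap1* (ENSMUSG00000053110, chromosome 9, from 7931999 to 8004596) overlapped, at 50.7, 64.0 and 60.3 RPKM across sg*Trp53* lines, against 37.1, 47.1 and 59.4 RPKM across sg*Kmt2c* lines. Only sg*Kmt2c* replicate 3 lay within the range of the sg*Trp53* lines. Its log2 fold change was -0.30 (95% confidence interval -0.84 to 0.25, adjusted p = 0.720 from limma), and leaving out sg*Kmt2c* replicate 1 gave -0.13, leaving out replicate 3 of that genotype -0.46. *Yap1* stood above *Wwtr1* in every line, by a ratio of 1.31, 1.39 and 1.24 with sg*Trp53* and 1.18, 1.89 and 2.57 in the sg*Kmt2c* lines, so the ratio overlapped. The sum of both coactivators, a quantity chosen after its values were seen, was 89.4, 110 and 109 RPKM across sg*Trp53* lines, against 68.5, 72.1 and 82.4 RPKM across sg*Kmt2c* lines, without overlap. *Gm20416* overlaps *Yap1* in the table.

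Among the TEAD factors, which place YAP and TAZ on DNA, *Tead1* was the most abundant per listed length in every line. *Tead1* (ENSMUSG00000055320, chromosome 7, from 112679318 to 112906807) lay at 83.4, 66.6 and 93.6 RPKM across sg*Trp53* lines, against 78.2, 48.0 and 50.04 RPKM across sg*Kmt2c* lines. Of the sg*Kmt2c* lines, replicate 1 sat among the sg*Trp53* lines, and replicates 2 and 3 were under all of them. This gave a log2 fold change of -0.48 (95% confidence interval -1.09 to 0.13, adjusted p = 0.638 from limma). *Tead2* (ENSMUSG00000030796, chromosome 7, from 45215753 to 45233635) varied far more between lines, at 32.1, 32.7 and 77.6 RPKM against 7.53, 26.5 and 43.6 RPKM, a 10.3-fold span over the 6 lines. Its log2 fold change of -1.02 (95% confidence interval -2.59 to 0.55, adjusted p = 0.692 from limma) was -1.54 without sg*Kmt2c* replicate 3, -0.61 without sg*Trp53* replicate 3 and -0.34 without sg*Kmt2c* replicate 1. *Cd37*, a leukocyte gene, overlaps *Tead2* in the table.

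The make-up of the TEAD family was least like the other lines in sg*Kmt2c* replicate 1. There *Tead2* made 6.06% of the summed RPKM of *Tead1* to *Tead4*, against 24.1 to 39.3% with sg*Trp53*, while sg*Kmt2c* replicates 2 and 3 had 30.2 and 37.1%. *Tead4* made 26.7% in that line, 10.4 and 12.7% in sg*Kmt2c* replicates 2 and 3, and 5.22 to 7.39% in the sg*Trp53* lines, so its share did not overlap between the genotypes. The level of *Tead4* itself overlapped, at 9.83, 5.80 and 13.9 RPKM against 33.2, 9.16 and 15.0 RPKM (log2 fold change 0.78, adjusted p = 0.695 from limma). These shares rest on the single length listed for each gene, and the order of *Tead1* and *Tead2* depends on it, as given below.

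**Figure D2:**
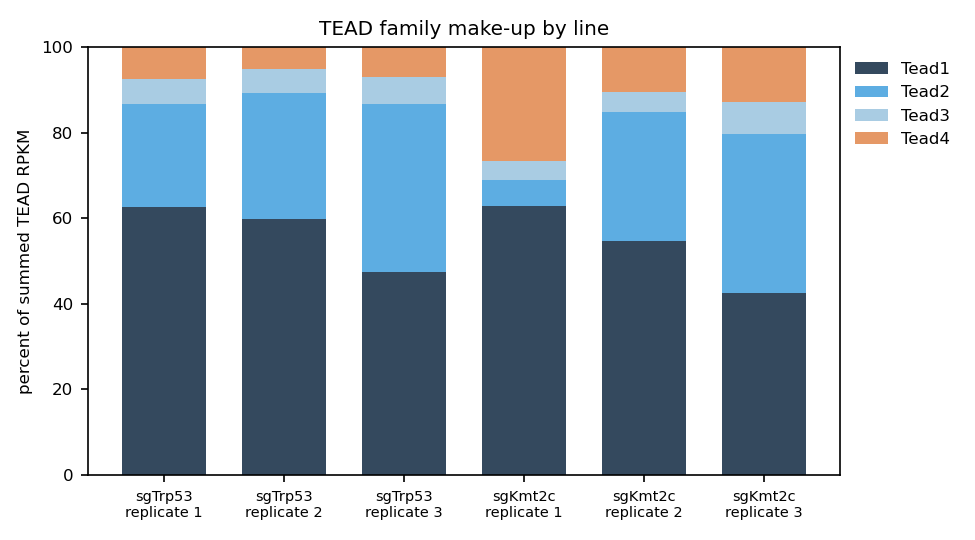
Stacked bars give the percent of the summed RPKM of *Tead1*, *Tead2*, *Tead3* and *Tead4* that each gene makes in each line. The share of *Tead2* is smallest in sgKmt2c replicate 1 (6.06%). That of *Tead4* is larger in every sgKmt2c line (10.4 to 26.7%) than in every sgTrp53 line (5.22 to 7.39%), while the RPKM of *Tead4* overlaps.

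Of the YAP targets, *Cyr61*, which encodes a secreted matricellular protein of the CCN family, had the smallest p-value of the 10 genes. *Cyr61* (ENSMUSG00000028195, chromosome 3, from 145646976 to 145649981) read 123, 133 and 202 RPKM across sg*Trp53* lines, against 54.7, 59.9 and 82.3 RPKM across sg*Kmt2c* lines. Every sg*Kmt2c* line was under every sg*Trp53* line. The means were 153 ± 42.8 and 65.6 ± 14.7 RPKM (SD, n = 3 each), so the sg*Kmt2c* mean was 0.429 times the sg*Trp53* mean. On the log2(RPKM + 1) scale the difference was -1.20 (SE 0.265, 95% confidence interval -1.83 to -0.56, adjusted p = 0.322 from limma). Its unadjusted p-value of 0.00312 (limma) placed it at 112 of the 11617 genes. The log2 fold change stayed between -1.37 and -0.98 in all 14 alternatives, and the adjusted p-value between 0.225 and 0.922 (limma). The exact permutation test could give no p-value under 0.1 here either, and gave 0.1 for *Cyr61* and for *Wwtr1*.

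*Ctgf*, the other CCN family target, did not separate the genotypes. *Ctgf* (ENSMUSG00000019997, chromosome 10, from 24595442 to 24598683) read 46.4, 19.1 and 159 RPKM across sg*Trp53* lines, against 54.6, 25.6 and 13.7 RPKM across sg*Kmt2c* lines. The sg*Trp53* lines alone spanned 8.32-fold, and sg*Kmt2c* replicate 1 was above sg*Trp53* replicates 1 and 2. The log2 fold change of -0.94 (95% confidence interval -2.89 to 1.01, adjusted p = 0.743 from limma) was -0.15 without sg*Trp53* replicate 3 and -0.48 without sg*Kmt2c* replicate 3, but -1.64 without sg*Trp53* replicate 2 and -1.44 without sg*Kmt2c* replicate 1. *Ctgf* ran from 0.143 to 0.788 of the *Cyr61* level with sg*Trp53* and from 0.166 to 0.999 in the sg*Kmt2c* lines, so these family members did not keep a fixed ratio. *Gm15270* overlaps *Ctgf* in the table.

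*Ankrd1*, a muscle ankyrin repeat gene that is widely used as a YAP readout, split into a high and a low set of lines that crossed the genotypes. *Ankrd1* (ENSMUSG00000024803, chromosome 19, from 36111965 to 36119844) was found at 125, 20.4 and 168 RPKM across sg*Trp53* lines, against 107, 18.6 and 17.8 RPKM across sg*Kmt2c* lines. sg*Trp53* replicates 1 and 3 and sg*Kmt2c* replicate 1 were at 107 RPKM or more, and the remaining lines were at or under 20.4 RPKM, with nothing between. The log2 fold change was -1.17 (95% confidence interval -3.52 to 1.17, adjusted p = 0.737 from limma), and dropping sg*Trp53* replicate 2 took it to -2.09, sg*Kmt2c* replicate 1 to -2.01 and sg*Trp53* replicate 3 to -0.60. Dropping sg*Kmt2c* replicate 2 or 3 gave -0.77 and -0.74.

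*Amotl2*, whose angiomotin-family product binds and restrains YAP, lay at 304, 362 and 495 RPKM across sg*Trp53* lines, against 389, 309 and 156 RPKM across sg*Kmt2c* lines (ENSMUSG00000032531, chromosome 9, from 102716672 to 102733418). The genotypes overlapped, with sg*Kmt2c* replicate 3 under all other lines. Its log2 fold change was -0.51 (95% confidence interval -1.41 to 0.39, adjusted p = 0.717 from limma), and it was -0.13 without sg*Kmt2c* replicate 3, -0.32 without sg*Trp53* replicate 3 and -0.78 without sg*Kmt2c* replicate 1. The 10 genes thus rested on between 75 reads (*Tead2* in sg*Kmt2c* replicate 1) and 2810 reads (*Cyr61* in sg*Trp53* replicate 3) per library, and all passed the filter on low values.

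The extremes of the 10 genes fell mostly on a few lines. sg*Trp53* replicate 3 was the highest of the 6 lines in 7 of the 10 genes (*Wwtr1*, *Tead1*, *Tead2*, *Ctgf*, *Cyr61*, *Ankrd1* and *Amotl2*), whereas it was the highest in 11.4% of all genes tested. sg*Kmt2c* replicate 3 was the lowest in 5 (*Wwtr1*, *Lats2*, *Ctgf*, *Ankrd1* and *Amotl2*), against 12.3% of all genes tested. sg*Kmt2c* replicate 1 was the lowest in 3 (*Yap1*, *Tead2* and *Cyr61*), and in 35.9% of all genes tested.

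Cell type markers also differed between lines. The epithelial list of 6 genes, with 4 at 1 RPKM or more in at least 3 libraries, summed to 861, 45.2 and 515 RPKM across sg*Trp53* lines, against 4147, 230 and 503 RPKM across sg*Kmt2c* lines. *Cldn7* of that list was at 0 in all sg*Kmt2c* lines, and *Cldn3* and *Esrp1* were at 0 in sg*Kmt2c* replicate 2. The biliary and progenitor list of 7 genes, all at that level, summed to 1145, 195 and 1275 RPKM and to 3587, 338 and 656 RPKM, with no gene at 0. For both lists the 3 lines with high *Ankrd1* had the 3 highest sums, in the epithelial list only by 515 against 503 RPKM. *Krt18* and *Krt19* had the same 3 lines highest, but not all genes did. *Krt8* and *Epcam* were higher in sg*Kmt2c* replicate 3 (327 and 6.88 RPKM) than in sg*Trp53* replicate 3 (265 and 2.42 RPKM). The hepatocyte sum was too (179 against 27.4 RPKM). The part of these markers in the *Ankrd1* values was not tested. The fibroblast list of 9 genes, 5 of them at that level, summed to 18.5, 996 and 290 RPKM and to 0.282, 156 and 121 RPKM, led by *Col3a1* in sg*Trp53* replicate 2 (814 RPKM). The hepatocyte list of 8 genes summed to between 4.60 and 1302 RPKM, led by *Hnf4a* in sg*Kmt2c* replicate 1 (1186 RPKM), and the immune list of 6 genes to between 31.6 and 75.7 RPKM, mostly *Cd14* and *Lyz2*, with the leukocyte gene *Ptprc* at 0.0655 RPKM or less. *Pdgfra* of the fibroblast list stayed under 1 RPKM in every line, and 7 of those 9 genes were at 0 in sg*Kmt2c* replicate 1.

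**Figure D3:**
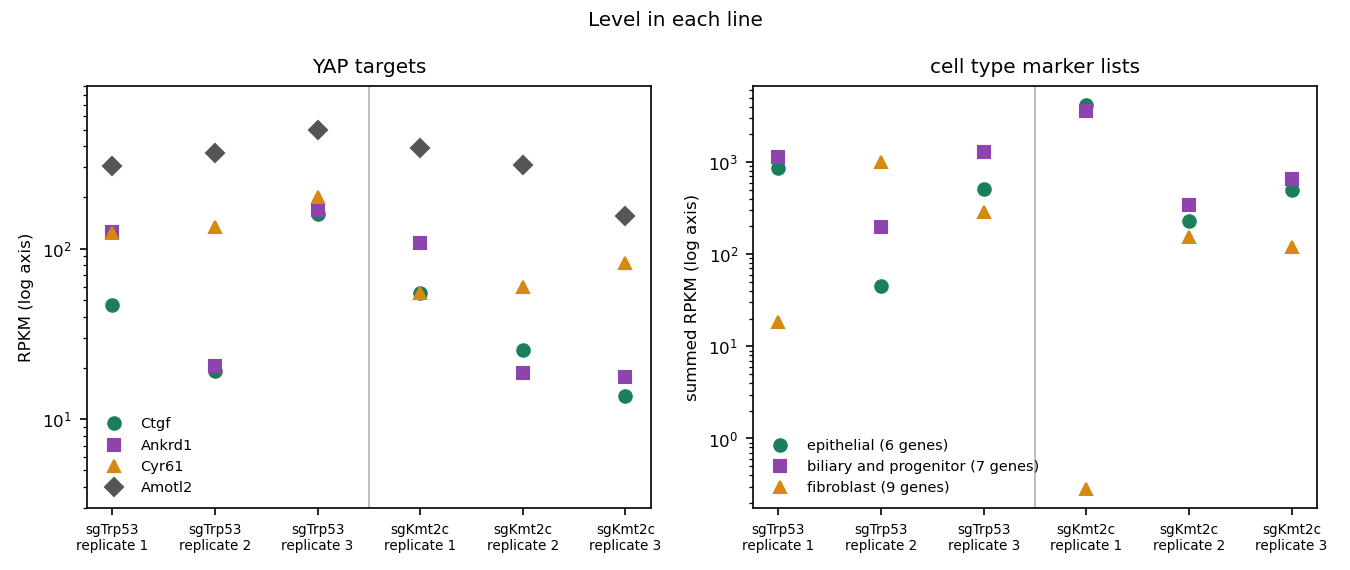
The left panel gives the RPKM of *Ctgf*, *Ankrd1*, *Cyr61* and *Amotl2* in each line and the right panel the summed RPKM of the epithelial, biliary and fibroblast marker lists, both on log axes. *Ankrd1* is at 107 RPKM or more in sgTrp53 replicates 1 and 3 and sgKmt2c replicate 1. The epithelial sums there are 861, 515 and 4147 RPKM. In sgKmt2c replicate 3 that sum is 503 RPKM, while *Ankrd1* is at 17.8 RPKM.

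*Ctgf* had the widest range of the 10 genes on the log2(RPKM + 1) scale, 3.45 over the 6 lines. The 5 tested genes whose values followed it most closely, by the root-mean-square difference between log2 values centred over the 6 lines, were *Sorbs2* (0.38), *Wnt10a* (0.44), *Col4a2* (0.45), *Tnfaip3* (0.46) and *Ica1l* (0.48). *Sorbs2*, which encodes an actin-associated adaptor protein, lay at 83.5, 39.8 and 147 RPKM across sg*Trp53* lines, against 71.8, 32.0 and 16.0 RPKM across sg*Kmt2c* lines. *Ica1l* (0 to 4.22 RPKM) and *Tnfaip3* (0.920 to 12.5 RPKM) were low genes, whose changes the log2(RPKM + 1) scale understates. Among the 10 genes *Ankrd1* was nearest to *Ctgf*, with a difference of 0.61 and place 10 of all genes tested. *Amotl2* came next at place 88 (0.80), then *Tead1* at 161 (0.86) and *Wwtr1* at 444 (0.95). *Cyr61* stood at place 892 (1.01) and *Yap1* at place 5998 (1.20), both further from *Ctgf* than *Ankrd1* was.

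Levels can be compared between the genes only per length. Averaged over the 6 lines, *Amotl2* was highest at 336 RPKM, followed by *Cyr61* (109), *Ankrd1* (76.2), *Tead1* (70.0), *Yap1* (53.1), *Ctgf* (53.1), *Tead2* (36.7), *Wwtr1* (35.5), *Lats1* (30.6) and *Lats2* (22.2). The ranges of every pair of neighbours in that order overlapped over the lines. Compared within each line, *Amotl2* stood above *Cyr61* in all of them, while the other pairs changed order between lines. The order also differed by genotype: *Tead1* (mean 58.7 RPKM) stood above *Ankrd1* (47.9) and *Lats1* (35.2) above *Ctgf* (31.3) with sg*Kmt2c*, whereas *Ctgf* (74.9) stood above *Yap1* (58.3) with sg*Trp53*. The place of *Amotl2* depended on its listed length of 781 bases: with the longest coding transcript of GENCODE M1 (4427 bases, an annotation of another build, used for its length only) its mean became 59.3 and *Cyr61* led. *Tead1* moved in the same way from the fourth place to the eighth, at 17.9 with a length of 9962 bases in place of 2543. On that basis *Tead2*, at 22.8, stood above *Tead1*. Comparisons between genotypes within a gene do not depend on its length, apart from the pseudocount.

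The rest of the pathway was read from a list of 26 further Hippo regulators, of which 24 could be tested, and a list of 17 further YAP targets, of which 16 could be tested. None of these 40 genes passed an adjusted p-value under 0.05 (limma), and 4 had an unadjusted p-value under 0.05, 1 on the higher and 3 on the lower side, near the 8.58% of all genes tested (3.25% higher, 5.34% lower). With limma voom on the recovered reads 0 passed and 2 had an unadjusted p-value under 0.05. The unadjusted count was 7 without sg*Kmt2c* replicate 1 and 2 without sg*Trp53* replicate 3, and also 2 with median-of-ratios scaling and with the mean of sg*Kmt2c* replicates 2 and 3 taken as 1 sample. The median log2 fold change was -0.24 for the regulators and -0.21 for the targets, beside -0.09 over all genes tested. Not tested were *Fat4* and *Dchs1*, an atypical cadherin pair upstream of the pathway, and the target *Rbms3*, none of them above 1.07 RPKM in any line.

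Among the regulators the lines did not overlap in 4 of the 24, near the 16.2% of all genes tested that did not. *Amotl1*, another angiomotin, lay at 2.95, 4.76 and 7.19 RPKM across sg*Trp53* lines, against 0.924, 0.212 and 2.06 RPKM across sg*Kmt2c* lines (log2 fold change -1.57, adjusted p = 0.430 from limma). *Fat1*, an atypical cadherin, lay at 21.7, 18.4 and 29.7 RPKM against 59.1, 33.0 and 41.2 RPKM, higher in every sg*Kmt2c* line (0.89, adjusted p = 0.491 from limma). The upstream kinases *Stk3* (MST2) and *Taok1* were apart with small differences, log2 fold changes of -0.23 and -0.16 (adjusted p = 0.749 and 0.782 from limma). *Amot*, at 6.36, 11.4 and 12.7 RPKM against 7.10, 1.79 and 4.34 RPKM, overlapped (-1.13, adjusted p = 0.579 from limma). *Frmd6*, a membrane-linked activator of the kinases, overlapped as well, at 21.8, 11.5 and 21.5 RPKM against 13.7, 6.75 and 5.22 RPKM (-1.06, adjusted p = 0.564 from limma). The core parts *Sav1*, *Mob1a*, *Mob1b* and *Nf2* had log2 fold changes between -0.15 and 0.07.

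None of the 16 further YAP targets was apart between the genotypes, and none had an unadjusted p-value under 0.05 (limma). Of all genes tested, 16.2% were apart and 8.58% were under that limit. Whether so few targets differ from all genes in this was not tested. The largest differences were those of *Ccdc80*, a matrix protein gene (log2 fold change -3.48, adjusted p = 0.611 from limma), *Igfbp3* (-1.17, adjusted p = 0.717) and *Fjx1* (-1.08, adjusted p = 0.628, both from limma). *Ccdc80* lay at 33.9, 305 and 302 RPKM across sg*Trp53* lines, against 0, 56.8 and 39.3 RPKM across sg*Kmt2c* lines, and its listed length of 363 bases raises these RPKM values. *Axl* and *Myof*, membrane protein genes among these targets, overlapped too, at 74.6 to 140 against 75.3 to 220 RPKM and at 73.5 to 129 against 69.9 to 209 RPKM.

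**Figure D4:**
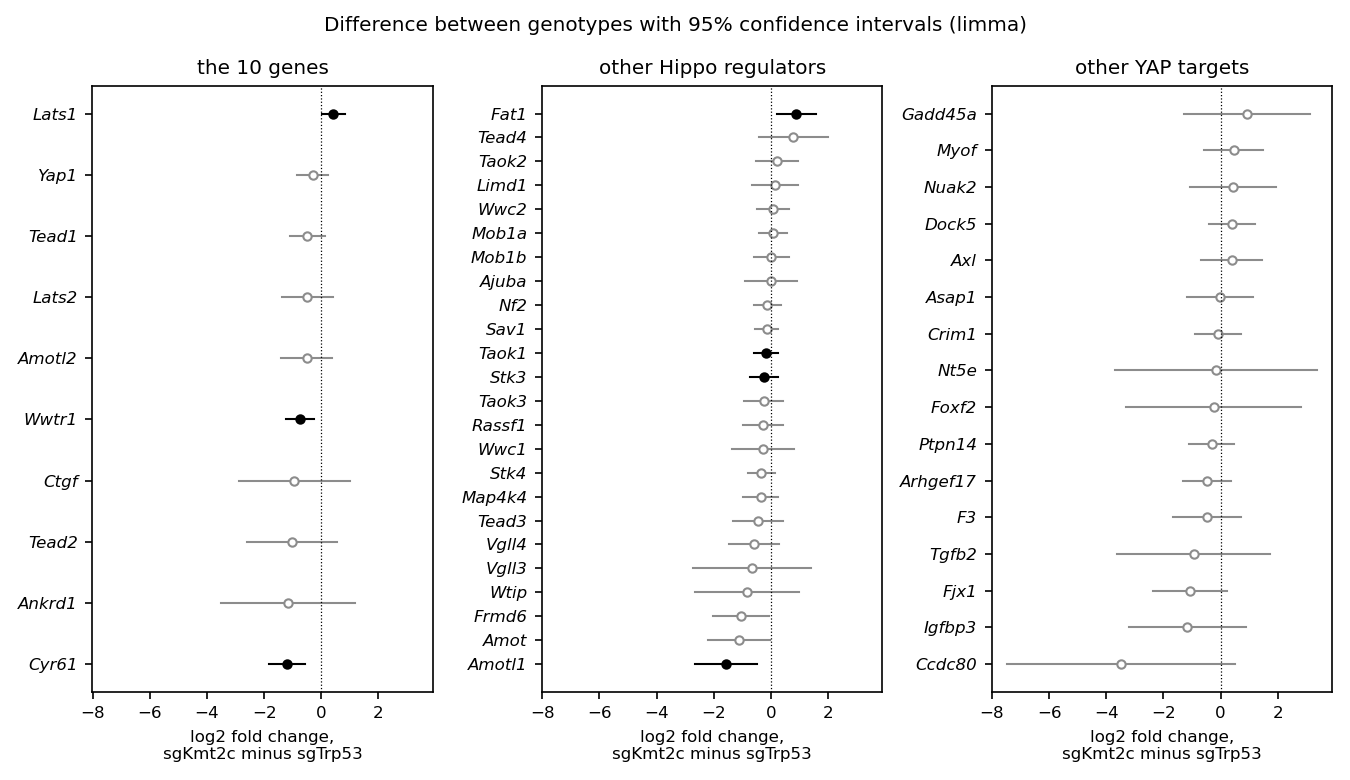
Points give the log2 fold change (sgKmt2c minus sgTrp53, on log2(RPKM + 1)) and lines its 95% confidence interval from limma, for the 10 genes and the tested genes of both further lists. Filled black points mark genes whose lines do not overlap between genotypes: *Cyr61*, *Wwtr1* and *Lats1* of the 10, 4 of 24 regulators and 0 of 16 targets. Of all genes tested, 16.2% do not overlap.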

How the data were processed

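RNA of 6 liver tumor-derived lines was sequenced, and each sample's title gave its genotype and replicate. Trimmomatic, STAR (GRCm38) and HTSeq made the gene counts, which the authors deposited as RPKM values. That table also held 6 sample columns not used here. The table of the authors' own comparison (fold changes and p-values) was not used. RPKM times listed length gave whole reads (tolerance 0.01) for 100% of values above 0. Taken over genes together, lines of a genotype were further apart than counting noise, with a chi-square divided by genes of at least 26.5.

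A filter of 1 RPKM in 3 or more of 6 libraries left 11617 genes for limma 3.58.1 in R 4.3.3 (eBayes with trend) on log2(RPKM + 1), a scale that understates changes of low genes, with Benjamini-Hochberg adjustment. The test was checked only on simulated reads with planted changes larger than those of the 10 genes. That check does not show whether changes of the size seen here would be found. The 10 genes and all lists were chosen with earlier results of these data known. Genes named beyond the 10 were those of the lists that passed the adjusted threshold, did not overlap or were among the 3 largest changes, marker and label genes, and the nearest profiles to the widest-ranging gene. *Tead3*, *Tead4*, *Sav1*, *Mob1a*, *Mob1b*, *Nf2*, *Axl* and *Myof* fall outside that rule and were chosen after their values were seen. Alternatives changed the pseudocount, filter, scaling, test, threshold, pairing and lines. The lines come from separate mice per the study's methods.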

Additional observations from a re-analysis of the deposited data

How the results depend on the processing

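Each of the 10 log2 fold changes kept its sign in all 14 alternatives that gave one, and none of the 10 genes and none of the 40 further pathway genes passed an adjusted p-value under 0.05 in any of these (limma). Using an unadjusted p-value under 0.05 in place of the adjusted one gave 3 of the 10 genes, 4 of the 40 and 997 of all genes tested. The count over all genes, 15 in the reported fit, was 6 with a pseudocount of 0.1, 5 with no filter on low values, 3 with limma voom on recovered reads, 0 with the replicate block (1085 at an unadjusted p-value under 0.05, with *Tead2* among the 10 genes in place of *Lats1*) and 0 with sg*Kmt2c* replicates 2 and 3, whose line names are 2A and 2T1, as a single sample (1053). Leaving out each line gave 0 to 8, with 8 without sg*Kmt2c* replicate 1, and between 563 and 1477 genes at an unadjusted p-value under 0.05. The replicate numbers were not taken as pairs: deviations of same-numbered lines correlated at 0.19, 0.40 and 0.03 for replicates 1, 2 and 3, and both lines numbered 3 correlated best with another number. With 3 lines a genotype and standard errors of 0.164 to 0.981 on the log2 scale, the 95% confidence intervals of 7 of the 10 genes include 0, and those of *Cyr61*, *Wwtr1* and *Lats1* do not.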

Other observations

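In some of the further YAP targets the sg*Kmt2c* lines lay far apart. *Nt5e*, the gene of the surface enzyme CD73, lay at 112 RPKM in sg*Kmt2c* replicate 1 and at 0.747 and 3.16 RPKM in replicates 2 and 3, against 5.49 to 17.2 RPKM in the sg*Trp53* lines. *Gadd45a*, a growth arrest gene that p53 also induces, lay at 79.1 RPKM in that line and at 6.21 and 11.7 RPKM in the others, against 4.15 to 14.7 RPKM. *Tgfb2*, a TGF-beta ligand gene, had its lowest value in that line, at 0.0415 RPKM there and 26.9 and 10.2 RPKM in the others, against 10.1 to 14.5 RPKM. *Foxf2*, a forkhead factor of mesenchyme, lay at 0.539 RPKM there and at 46.1 and 17.4 RPKM in the others, against 5.62 to 33.3 RPKM. These genes were chosen after their values were seen. Among the 40 further pathway genes tested, sg*Kmt2c* replicate 1 was the highest or lowest of the 6 lines in 22, and over all genes tested in 6904 of 11617.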
